A study of Mus musculus with 27 samples.

Results

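The genes described here carry the electrical signal of a skeletal muscle fiber to calcium release and take the calcium back up: Cacna1s and Cacng1, Ryr1, Casq1, Trdn, Jph1, Jph2, Atp2a1, Sln and Pvalb. They were found by symbol among the gene names printed in the array files, and all 10 symbols were found, on 14 of the 55681 probes. The lookup used no measured value, but the members and the lists below were chosen with earlier results of these data known. Their shares of calls, set beside those of all genes, are therefore descriptions. In a muscle fiber an action potential runs down the transverse tubules and is sensed by a voltage-gated calcium channel, which opens the ryanodine receptor of the sarcoplasmic reticulum by direct contact. The calcium set free starts contraction, and a pump of the reticulum returns it to the store, with soluble and luminal proteins holding it on either side of the membrane. Fast fibers, the bulk of the mouse tibialis anterior, are known for dense junctions, much pump and much parvalbumin.

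Single myofibers of the tibialis anterior, a fast muscle of the lower leg, were profiled from male mice, 1 array per myofiber. The study asked what loss of Smn1, the gene lacking in spinal muscular atrophy, does within muscle, and whether amniotic fluid stem (AFS) cells alter it. The groups were 8 WT myofibers from 2 mice, 12 Smn1deltaSKM myofibers from 3 mice and 7 Smn1deltaSKM+AFS myofibers from 2 mice. Smn1deltaSKM mice carry a floxed exon 7 of Smn1 on both alleles and Cre under the human skeletal actin (HSA) promoter, so the deletion is made in muscle fibers and other cells keep the gene. In the methods, AFS cells sorted for GFP and c-kit were injected by tail vein into such mice at 3 months of age and muscles were taken 1 month later, whereas the labels give 3 months as the age of all groups. The methods name C57BL/6 mice that carry GFP as a source of myofibers without calling them WT, while the paper's results call the controls littermates. The paper's results also count fewer AFS-treated myofibers, from more mice, than the labels, which were followed here. Its methods list 7 such myofibers, as the labels do. No Cre-only or vehicle-injected group was analysed here. Each level below is the log2 signal relative to the 75th percentile of its own array, so a lower level cannot be told apart from a rise in the rest of the RNA.

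The number of probes with usable values per array was 23864 to 34001 in WT (median 25147.5), 23170 to 37580 in Smn1deltaSKM (median 31411) and 25868 to 30478 in Smn1deltaSKM+AFS (median 27412). Smn1 was read by 2 probes. On one the mouse means were 1.86 and 1.84 in WT, -0.07, 0.20 and 0.36 in Smn1deltaSKM and -0.34 and 0.82 in Smn1deltaSKM+AFS, and Smn1deltaSKM was 3.21 times lower than WT (adjusted p = 0.0205, limma). On the other, which is the brighter, Smn1deltaSKM was 0.19 ± 0.35 (SE) higher than WT on the log2 scale (adjusted p = 0.717). By the rule used for the other genes, this brighter probe stands for Smn1. The sources used here do not place either probe against the deleted exon. Of 10 myofiber markers, 9 had values on all WT arrays and 10 on all arrays of both other groups, and their summed linear level ran from 1547 to 2261 in WT, from 772.7 to 1268 in Smn1deltaSKM and from 1298 to 1931 with AFS cells. This sum, which includes Ryr1, moved with the groups as the members did, and its part in the differences below was not tested. Of the satellite cell markers Myf5, Calcr and Chrdl2 had no value on any array, and the sums of that list ran from 0.637 to 1.86 in WT, from 0.810 to 23.8 in Smn1deltaSKM and from 1.02 to 1.59 with AFS cells. The fibroblast marker Pdgfra had none either, and the fibroblast sums ran from 0.880 to 121.6 in WT (median 2.43), from 1.69 to 36.7 in Smn1deltaSKM (median 12.3) and from 1.98 to 24.6 with AFS cells (median 16.9). Medians in the same order were 6.16, 11.7 and 11.3 for smooth muscle cells or pericytes, 0.706, 2.63 and 2.66 for adipocytes, 0.966, 2.91 and 13.6 for erythroid cells and 255.8, 232.2 and 272.6 for leukocytes, with ranges that overlapped. Among the leukocyte markers, the mouse means of Cd68 on the log2 scale were -1.67 and -0.70 in WT, 0.95, 3.04 and 1.72 in Smn1deltaSKM, and 3.13 and 0.44 with AFS cells. Ptprc and Cd74 were also higher in every Smn1deltaSKM mouse than in WT, and Emr1, Lyz2 and Itgam overlapped. Csf1r went the other way, with 4.66 and 4.74 in WT against 4.12, 4.24 and 4.24 in Smn1deltaSKM. Itgam, at 7.72 and 7.96 in WT, was the brightest of the leukocyte list and weighs most in its sums. The part of these cell types in the differences below was not tested. The endothelial sums also overlapped, between 8.56 and 24.9 in WT, 11.6 and 22.4 in Smn1deltaSKM and 15.7 and 24.5 with AFS cells. The 8 WT arrays shared a slide, and scan day 3 held no other group, so genotype and scan cannot be told apart. Smn1deltaSKM myofibers 1 to 3 and Smn1deltaSKM+AFS myofibers 2 and 3 were scanned on day 1 and the rest of those groups on day 2.

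The probes that carry the comparisons are printed here as the array design lists them, 5′ to 3′, with mm9 coordinates. Those of Ryr1 and Casq1 are given in full, since each spans more of the genome than its own length (699 and 1504 bases for 60 bases of probe) so that it maps in separate blocks. For the others the first 30 bases are shown.
Ryr1, chr7:29788789-29789487, minus strand: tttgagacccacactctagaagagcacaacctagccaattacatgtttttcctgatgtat
Casq1, chr1:174140602-174142105, minus strand: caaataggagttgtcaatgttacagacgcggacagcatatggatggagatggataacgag
Jph2, first bases, chr2:163163526-163163585, minus strand: tcggacctaaaaccttgctcacatccactc
Cacna1s, brighter probe, first bases, chr1:138016020-138016079, plus strand: cacaaaggcctgatcggtgccagggtctgt
Cacna1s, dimmer probe, first bases, chr1:138015618-138015677, plus strand: cagatggaaccagaggaagtcgaggtggca
Trdn, brightest probe, first bases, chr10:32915796-32915855, plus strand: gctaagaaggaaatgaaagttggaaaacag
Trdn, probe far downstream, first bases, chr10:33194264-33194323, plus strand: acaacctggagagaaccctggcaaaacaaa
Sln, first bases, chr9:53701574-53701633, plus strand: gccttagctttgttccctagcaaatgtact
No capitals are used in these lines, since no part of a probe is singled out. Where a gene had several probes the brightest stood for it.

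In Smn1deltaSKM myofibers all 9 members that could be tested lay below WT, as did 55.4% of all genes. Of the 9, 3 fell past the threshold: Ryr1, Casq1 and Jph2. Ryr1, the channel that releases calcium from the reticulum, was 2.96 times lower. Casq1, the main calcium-binding protein inside the store, was 2.46 times lower, and Jph2, which ties the tubule to the reticulum, was 2.16 times lower. Across all 17049 genes tested, 21.1% were called in either direction and 13.6% were called lower, against 33.3% of the 9 members. The members' median difference was -1.11 on the log2 scale and that of all genes was -0.13. The remaining 6 members did not pass, with differences between -1.77 and -0.51. In 8 of the 9 members every Smn1deltaSKM mouse lay below every WT mouse, which was true of 33.3% of all genes tested. Sln had values on too few arrays to be tested and is described on its own.

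The tests compared means of mice with limma, since myofibers of a mouse share its genotype, and p-values were adjusted by Benjamini-Hochberg over all 22870 probes. The calls rest on the 2 WT mice: with WT mouse 1 left out 0 of 17735 genes were called (3588 at an unadjusted p under 0.05, 3 of them members), and with WT mouse 2 left out 0 of 17373 (4555 at an unadjusted p under 0.05, 4 of them members). Without Smn1deltaSKM mouse 1, 8 members were called beside 42.7% of all genes, and without mouse 2 or 3 the call held for Ryr1 alone, beside 8.24% and 9.003% of all genes. With slide as a random block Casq1 and Jph2 were not called, Ryr1 and Cacna1s were, and 10.2% of all genes passed. That fit took myofibers as units. It cannot separate genotype from slide, since the slide of the WT arrays held no other group.

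**Figure D1:**
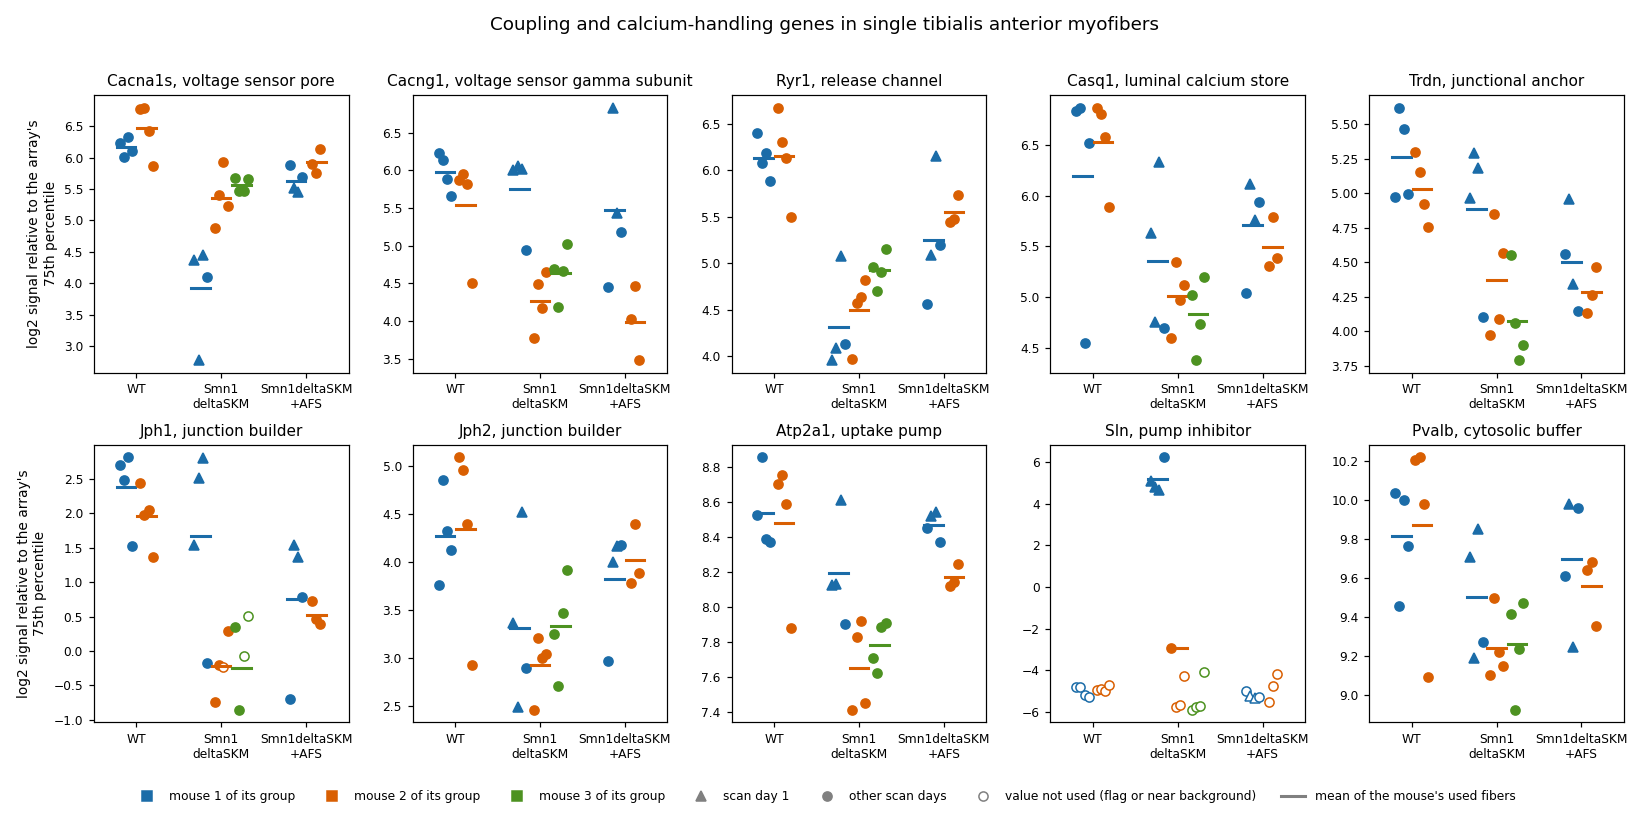
Level of each gene in each of the 27 myofibers, as log2 signal relative to the array's 75th percentile (the vertical axis differs between panels). Points are myofibers, coloured by mouse within the group, triangles were scanned on day 1, open points gave no usable value and bars are means of the used myofibers of a mouse. Ryr1 lay between 3.96 and 5.15 in the Smn1deltaSKM myofibers, all below the lowest WT value of 5.50, and Sln stood out in all 4 myofibers of Smn1deltaSKM mouse 1 and in no other myofiber.

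Ryr1 ranged from 5.50 to 6.67 in WT myofibers with a median of 6.16, from 3.96 to 5.15 in Smn1deltaSKM with a median of 4.67, and from 4.56 to 6.16 in Smn1deltaSKM+AFS with a median of 5.45. All 12 Smn1deltaSKM myofibers were below all 8 WT myofibers, while the AFS-treated myofibers overlapped both groups. By mouse, the means were 6.14 and 6.15 in WT, 4.31, 4.50 and 4.93 in Smn1deltaSKM, and 5.25 and 5.55 in Smn1deltaSKM+AFS. The difference between Smn1deltaSKM and WT was -1.56 ± 0.29 (SE; adjusted p = 0.0139). It was lost under 2 of the 24 other settings tried, both of which left out a WT mouse.

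Casq1 ranged from 4.55 to 6.87 in WT with a median of 6.70, from 4.38 to 6.33 in Smn1deltaSKM with a median of 4.997, and from 5.04 to 6.12 in Smn1deltaSKM+AFS with a median of 5.76. The low end of WT was myofiber 3 alone, at 4.55, and the 7 other WT myofibers were at 5.89 or above. Smn1deltaSKM myofiber 3, scanned on day 1, was the only one of its group inside that upper range. The mouse means were 6.19 and 6.54 in WT, 5.35, 5.01 and 4.83 in Smn1deltaSKM, and 5.71 and 5.50 with AFS cells. The difference between Smn1deltaSKM and WT was -1.30 ± 0.29 (adjusted p = 0.0207). The call was lost under 6 of the 24 other settings, 4 of which left out a mouse.

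Jph2 ranged from 2.93 to 5.08 in WT with a median of 4.36, from 2.46 to 4.51 in Smn1deltaSKM with a median of 3.12, and from 2.97 to 4.39 in Smn1deltaSKM+AFS with a median of 3.99. The myofibers of the groups overlapped and only 4 of 12 Smn1deltaSKM myofibers lay below all WT myofibers. The mice did not overlap, with means of 4.26 and 4.34 in WT against 3.31, 2.92 and 3.33 in Smn1deltaSKM. The difference was -1.11 ± 0.27 (adjusted p = 0.0261), and it was lost under 10 of 24 other settings, among them quantile normalization in place of the 75th percentile.

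Jph1, the partner of Jph2 in fast muscle, had the widest gap of the members and did not pass the test (-1.77 ± 0.56, adjusted p = 0.0547). It ranged from 1.36 to 2.81 in WT and gave values in 9 of 12 Smn1deltaSKM myofibers, from -0.86 to 2.80. The mouse means were 1.67 in Smn1deltaSKM mouse 1 and -0.22 and -0.25 in mice 2 and 3. In mouse 1 the day-1 myofibers lay at 1.54, 2.51 and 2.80, within the WT range, and myofiber 4, scanned on day 2, lay at -0.17.

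Cacna1s, the pore and voltage sensor of the tubular calcium channel, was lower on both of its probes. On the brighter probe it ranged from 5.87 to 6.79 in WT, from 2.78 to 5.94 in Smn1deltaSKM and from 5.45 to 6.13 in Smn1deltaSKM+AFS. The difference between Smn1deltaSKM and WT was -1.37 ± 0.48 (adjusted p = 0.0720) there and -1.52 ± 0.46 on the dimmer probe, which passed (adjusted p = 0.0486). On the dimmer probe all 12 Smn1deltaSKM myofibers, from 1.97 to 4.34, were below all WT myofibers, from 4.66 to 5.53. Smn1deltaSKM mouse 1 stood lowest on both, at 3.93 against 5.36 and 5.57 in the other mice on the brighter probe. Without that mouse the difference shrank to -0.85 and passed the test (adjusted p = 0.0262).

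Cacng1, the gamma subunit of the same channel, did not separate the genotypes. WT myofibers ran from 4.51 to 6.23 and Smn1deltaSKM myofibers from 3.78 to 6.05, and the mouse means overlapped, with 5.98 and 5.54 against 5.75, 4.27 and 4.64. The difference was -0.87 ± 0.54 (adjusted p = 0.268). The 3 day-1 myofibers of Smn1deltaSKM mouse 1 lay close together at 6.003, 6.05 and 6.01, above the other 9 of the group, which ended at 5.03.

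Trdn, which anchors Casq1 to the release channel, was measured by 3 probes that did not give the same call. The brightest, at chr10:32915796-32915855, differed by -0.70 ± 0.31 (adjusted p = 0.134), and a neighbour at chr10:32919981-32920040 by -1.13 ± 0.38 (adjusted p = 0.0646). The probe far downstream, at chr10:33194264-33194323, differed by -1.34 ± 0.34 and passed (adjusted p = 0.0303). They also ordered the Smn1deltaSKM mice in opposite ways. On the brightest probe mouse 1 was highest (4.88, against 4.37 and 4.08), and on the downstream probe it was lowest (1.56, against 1.94 and 2.58). Trdn is known to give several isoforms that differ in their downstream part, and which of them each probe reads was not examined.

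Atp2a1, the fast-fiber calcium pump, and Pvalb, the soluble calcium buffer of fast fibers, had the smallest differences, and neither passed. Atp2a1 ran from 7.88 to 8.85 in WT and from 7.42 to 8.61 in Smn1deltaSKM (difference -0.63 ± 0.28, adjusted p = 0.137). Pvalb ran from 9.09 to 10.22 and from 8.93 to 9.85 on its brighter probe (-0.51 ± 0.25, adjusted p = 0.179), and its other probe gave -0.67 ± 0.27 (adjusted p = 0.102). Counted by probe, 5 of the 13 member probes tested were called lower, against 14.3% of all probes.

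**Figure D2:**
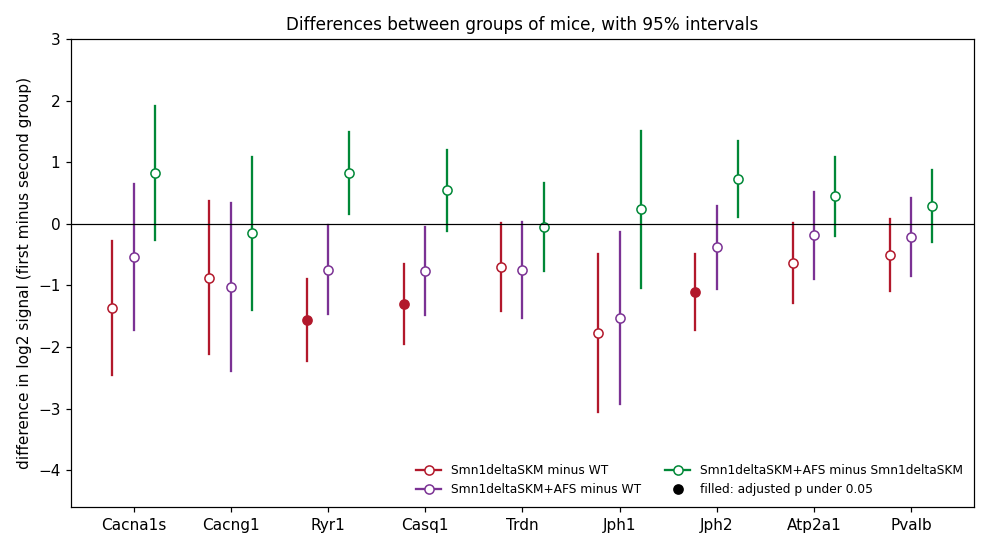
Difference in log2 signal between groups of mice for the 9 members tested, with 95% intervals from limma. Filled points passed an adjusted p under 0.05: Ryr1, Casq1 and Jph2 in Smn1deltaSKM minus WT, and none in the other comparisons.

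Sln, the small membrane peptide that inhibits the calcium pump, was seen at high level in 1 mouse. Its probe was not well above background on any of the 8 WT arrays or any of the 7 Smn1deltaSKM+AFS arrays. In Smn1deltaSKM mouse 1 it read 5.08, 4.81, 4.65 and 6.23 in myofibers 1 to 4. Myofiber 5, of mouse 2, read -2.96, and the 7 other Smn1deltaSKM myofibers gave no value. Set against the lowest signal counted as well above background on each array, the mean of mouse 1 was at least 259-fold higher than WT and at least 311-fold higher than Smn1deltaSKM+AFS. Over all 3 Smn1deltaSKM mice the bound was at least 2.32-fold against WT and at least 2.78-fold against Smn1deltaSKM+AFS. No test was made, since the filter on available values left the probe out of every fit.

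Of the myofibers with high Sln, 1 to 3 of mouse 1 shared scan day 1 and a slide that held no other sample, and myofiber 4, the highest at 6.23, was scanned on day 2 on another slide that also held an AFS-treated myofiber without a value. Of the 55681 probes, 39 had values on all 4 myofibers of this mouse and on no WT or AFS array, and the corresponding counts for Smn1deltaSKM mice 2 and 3 were 70 and 48. Of those 39, 31 had a value on at most 1 other Smn1deltaSKM myofiber, Sln among them. This look at other probes was chosen after the Sln values were seen.

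In Smn1deltaSKM+AFS against Smn1deltaSKM no member was called, and neither was any of the 16636 genes tested (0%), with 512 genes at an unadjusted p under 0.05 in limma and 20 genes called, none of them a member, when myofibers were taken as replicates. Ryr1 stood 0.82 ± 0.29 higher in the AFS-treated mice (95% interval 0.16 to 1.48, unadjusted p = 0.0211) and Jph2 0.73 ± 0.27 higher (0.12 to 1.34, unadjusted p = 0.0250). Both adjusted p-values were 1.00. These were the 2 members with an unadjusted p under 0.05 in the higher direction, a mark that 2.62% of all genes reached. Of the 9 members 7 had differences above 0 and 2 had differences below 0, as had 42.6% of all genes. In 5 members (Cacna1s, Ryr1, Casq1, Jph2 and Pvalb) both AFS-treated mice lay above all 3 untreated mice, as in 12.3% of all genes. For Ryr1, 5 of 7 AFS-treated myofibers were above every untreated Smn1deltaSKM myofiber. Trdn and Cacng1 differed by -0.05 and -0.16 with intervals from -0.76 to 0.66 and from -1.40 to 1.09.

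Within a scan day the untreated and treated knockout could be set side by side, though not within a slide. On each day the groups sat on separate slides, save a day-2 slide that held a single myofiber of each. Treatment and slide therefore cannot be told apart within a day. On day 2 Ryr1 was 0.69 higher in the AFS-treated mice (2 against 3 mice) and on day 1 it was 1.25 higher (1 mouse against 1). Jph2 was 0.75 and 0.62 higher, Cacna1s 0.85 and 1.61 higher, and Casq1 0.65 and 0.37 higher on days 2 and 1. Jph1, Trdn and Cacng1 differed in sign between days: Jph1 was 0.50 higher on day 2 with a difference of -0.83 on day 1, Trdn was 0.14 higher on day 2 with a difference of -0.50 on day 1, and Cacng1 was at -0.22 on day 2 and 0.11 on day 1. Day 1 holds 1 mouse a group, so no test is possible within it.

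Against WT, the AFS-treated mice had no member called, beside 7.32% of all genes. All 9 members still had differences below 0, as had 52% of all genes. In each of the 9, every AFS-treated mouse lay below every WT mouse, as in 36% of all genes. Jph1 was at -1.53 ± 0.61 (adjusted p = 0.141), Ryr1 at -0.75 ± 0.32 (adjusted p = 0.161) and Casq1 at -0.76 ± 0.31 (adjusted p = 0.1501). These 3 had an unadjusted p under 0.05, as had 29.3% of all genes. Jph2 stood at -0.38 ± 0.29 and Atp2a1 at -0.19 ± 0.31. Both comparisons of a knockout group with WT share the same 2 WT mice.

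**Figure D3:**
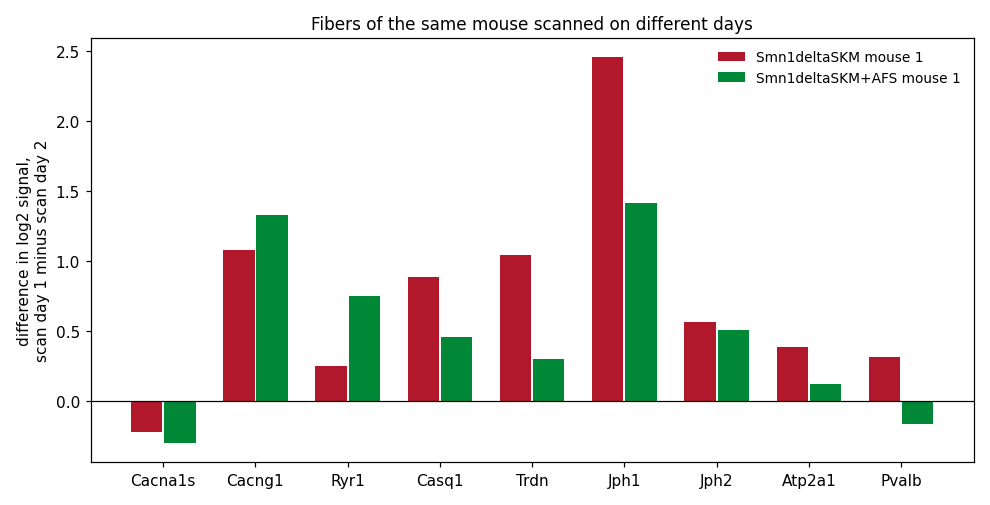
Mean log2 signal of the day-1 myofibers minus that of the day-2 myofibers in the mouse of each group that was scanned on both days: 3 and 1 myofibers in Smn1deltaSKM mouse 1 and 2 and 2 myofibers in Smn1deltaSKM+AFS mouse 1. Jph1 and Cacng1 were over 1 log2 unit higher on day 1 in both mice, and Cacna1s was lower on day 1 in both.

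The myofibers of a mouse did not read alike, and for some members the scan day went with the level. In Smn1deltaSKM mouse 1, Jph1 was 2.46 higher in the 3 day-1 myofibers than in the day-2 myofiber, Cacng1 1.08 higher and Trdn 1.04 higher. In Smn1deltaSKM+AFS mouse 1, with 2 myofibers on each day, Jph1 was 1.41 and Cacng1 1.32 higher on day 1. Among all genes, 10.6% in the first mouse and 8.21% in the second were over 1 log2 unit higher on day 1. Ryr1, Casq1 and Jph2 differed by 0.25 to 0.88 between days in the first mouse and by 0.45 to 0.75 in the second. With all day-1 arrays left out, a setting chosen after the data were seen, 7 members were called lower in Smn1deltaSKM than in WT, beside 29.0% of all genes called, and the 2 not called were Atp2a1 and Pvalb.

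Within a mouse, the SD among Ryr1 myofibers was 0.38 in WT, 0.38 in Smn1deltaSKM and 0.53 with AFS cells. Casq1 had 0.85, 0.53 and 0.40, and Jph1 had 0.52, 1.05 and 0.80. Atp2a1 was the steadiest with AFS cells, at 0.07, against 0.33 in WT and 0.24 in Smn1deltaSKM. Between mouse means, the Smn1deltaSKM group had an SD of 0.89 for Cacna1s and 1.10 for Jph1, against 0.32 for Ryr1 and 0.14 for Pvalb.

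**Figure D4:**
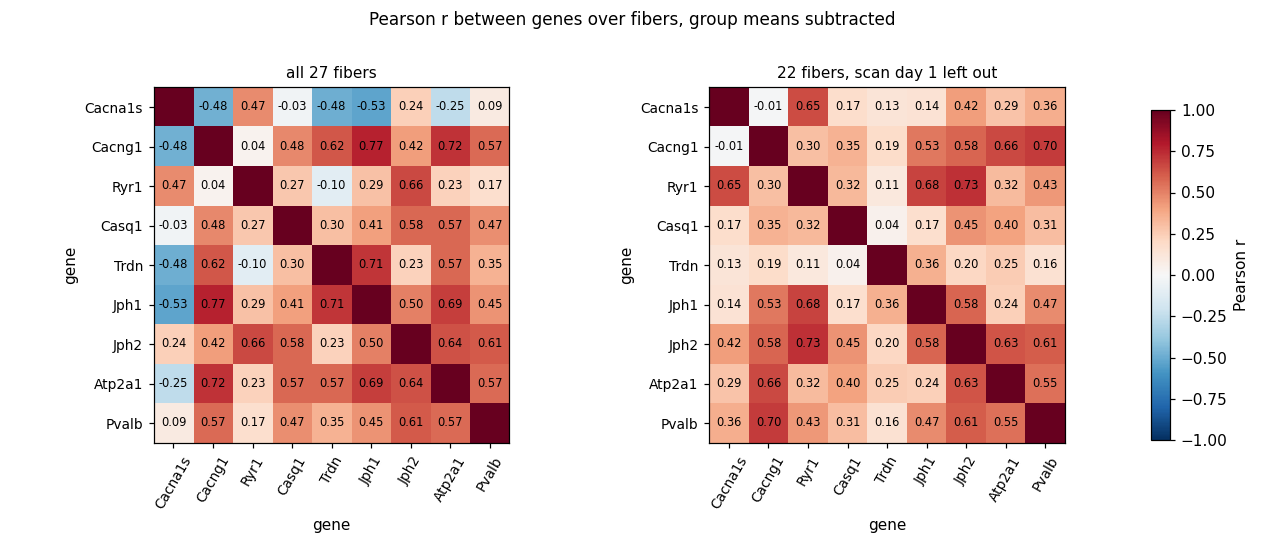
Pearson r between members over single myofibers after each group mean was subtracted, for all 27 myofibers and with the 5 day-1 arrays left out. Cacna1s was negative with Cacng1 (-0.48), Trdn (-0.48) and Jph1 (-0.53) over all myofibers, and these became -0.01, 0.13 and 0.14 without day 1, while Ryr1 with Jph2 stayed at 0.66 and 0.73.

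Over the 27 myofibers, with group means taken out, the 36 pairs of members had a median r of 0.43. Pairs with Jph1 rest on 24 myofibers. This is a description, since myofibers share mice, slides and amplification. The tightest pair was Cacng1 with Jph1 (r = 0.77), which fell to 0.53 over the 22 myofibers not scanned on day 1. Ryr1 with Jph2 had r = 0.66 over all and 0.73 without day 1. Cacna1s was the member set apart over all myofibers, and its negative r with Trdn and Jph1 was not seen without day 1.

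Among 10168 genes with values on all arrays, those most like Cacna1s over the 27 myofibers were Scn4a (r = 0.95), the muscle sodium channel, Slc2a4 (r = 0.94), the insulin-sensitive glucose transporter, and Slc41a3 (r = 0.93). Ryr1 went with Neb (r = 0.76), the giant thin-filament protein nebulin, behind a pair of unnamed chromosome 7 transcripts (r = 0.78 and 0.77). Trdn went with Snrpb2 (r = 0.85), Rpl4 (r = 0.84) and Tfg (r = 0.84), and Jph1, over the 24 myofibers with a value, with an unnamed transcript (r = 0.92), Morf4l1 (r = 0.90) and Popdc3 (r = 0.88). Atp2a1 went with Eef1a2 (r = 0.90), the muscle form of elongation factor 1 alpha, then with a pair of unnamed transcripts (r = 0.90 and 0.88). Pvalb went with 2310040G24Rik (r = 0.85), S100a16 (r = 0.82) and Tceal5 (r = 0.82). Jph2 went with an unnamed chromosome 5 transcript (r = 0.79), Man2a2 (r = 0.78) and Pelp1 (r = 0.77). For Casq1 the highest were predicted genes, Gm6428, Gm4832 and Gm5265 (each r = 0.78). For Cacng1 they were LOC100048260 (r = 0.92) and a pair of unnamed transcripts (each r = 0.91). Only group means were taken out, so differences between mice and scan days enter these r values. They were not recomputed without day 1.

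RefSeq promoters (GRCm38.p6) were at hand for 6 of the 10 members in 8 entries: Cacna1s, Casq1, Jph2, Ryr1, Atp2a1 and Pvalb. Sln, Cacng1, Trdn and Jph1 had no entry. The 250 bases before the start are printed for the 3 genes that were called and for Cacna1s, with every match to the E-box letters CANNTG in capitals. This is the motif bound by the muscle regulatory factors of the MyoD family, and it reads the same pattern on both strands.
Ryr1, chr7:29125152-29125401, minus strand: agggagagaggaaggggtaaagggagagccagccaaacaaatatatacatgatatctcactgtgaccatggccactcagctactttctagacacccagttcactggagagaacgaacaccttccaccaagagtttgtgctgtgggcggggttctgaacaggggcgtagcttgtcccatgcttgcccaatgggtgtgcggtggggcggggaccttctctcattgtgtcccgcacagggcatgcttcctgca
Casq1, chr1:172219896-172220145, minus strand: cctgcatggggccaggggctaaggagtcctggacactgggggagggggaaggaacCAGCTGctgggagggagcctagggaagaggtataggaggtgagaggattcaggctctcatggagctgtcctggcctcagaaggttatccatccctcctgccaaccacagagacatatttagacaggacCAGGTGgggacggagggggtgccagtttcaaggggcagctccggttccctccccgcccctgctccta
Jph2, chr2:163397994-163398243, minus strand: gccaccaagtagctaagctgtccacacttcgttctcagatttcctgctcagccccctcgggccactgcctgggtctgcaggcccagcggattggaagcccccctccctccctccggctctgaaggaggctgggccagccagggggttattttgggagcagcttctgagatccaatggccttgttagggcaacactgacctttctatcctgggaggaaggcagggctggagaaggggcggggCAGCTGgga
Cacna1s, chr1:136052561-136052810, plus strand: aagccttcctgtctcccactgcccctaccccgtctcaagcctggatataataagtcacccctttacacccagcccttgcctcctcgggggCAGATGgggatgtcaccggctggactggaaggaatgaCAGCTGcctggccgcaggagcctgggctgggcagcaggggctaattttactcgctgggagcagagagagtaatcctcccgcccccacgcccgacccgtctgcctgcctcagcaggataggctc
CANNTG was found in at least 1 entry of 5 of the 6 members and in 66.2% of all 32851 upstream stretches of that length. The narrower form CAGCTG, each of whose matches is also a CANNTG match, was found for 4 members (Cacna1s, Casq1, Jph2 and Atp2a1) and in 13.0% of all stretches. The Ryr1 stretch held neither. TATAAA, searched on both strands, was found in none of the 8 entries and in 12.4% of all stretches. These matches are letters in a window, with no measure of binding.

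Around the members, the rest of the calcium-handling machinery was counted in lists of 104 genes on the array, of which 85 were tested in Smn1deltaSKM against WT. Of these 27 fell and 2 rose (34.1% called, against 21.1% of all genes). Their median difference was -0.68. Scaling by the median in place of the 75th percentile moved the median of all genes from -0.13 to 0.08. The share of calls that were lower then went from 64.4% to 43.8%, and 17 pathway genes fell, beside 17.7% of all genes called in either direction. In Smn1deltaSKM+AFS against WT that share went from 55.0% to 41.9%. The same scaling kept Ryr1 and Casq1 among the calls and all 9 members below 0.

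**Figure D5:**
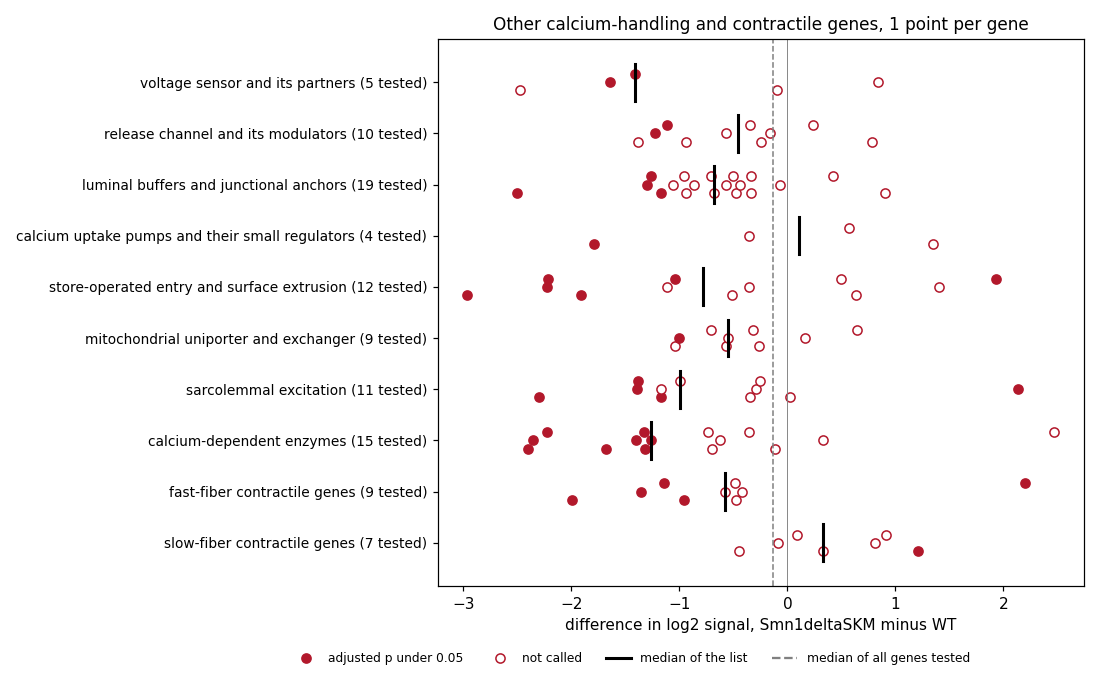
Difference in log2 signal, Smn1deltaSKM minus WT, for genes of 8 calcium-handling lists and of the fast and slow contractile lists, 1 point per gene. Filled points passed an adjusted p under 0.05, black bars are list medians and the dashed line is the median of all genes at -0.13. Calcium-dependent enzymes had the most calls of the calcium lists, with 8 of 15 lower (53.3%, beside 21.1% of all genes called).

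The lists differed in their shares of calls, to be set beside the 21.1% of all genes called. Partners of the voltage sensor fell in 2 of 5 tested genes (40%). Cacnb1, the beta subunit of the same channel, went from 5.30 in WT to 3.66 (-1.64 ± 0.26, adjusted p = 0.00990), and Cacna2d1, its alpha-2-delta subunit, differed by -1.41 ± 0.41 (adjusted p = 0.0429). Stac3, an adaptor needed to couple the sensor to the release channel, had a larger gap that did not pass (-2.47 ± 0.79, adjusted p = 0.0561). Of 10 genes tied to the release channel 2 fell (20%, near the share of all genes). They were the scaffold genes Homer3 (-1.23 ± 0.28, adjusted p = 0.0221) and Homer1 (-1.12 ± 0.32, adjusted p = 0.0431).

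Of 19 luminal and junctional genes 4 fell (21.1%, the share called among all genes). They included Jph3, a junctophilin known mainly from brain (-2.51 ± 0.37, adjusted p = 0.00893), and Tmem38a, the potassium channel that balances calcium release (-1.26 ± 0.26). The others were Sypl2, a junctional membrane protein (-1.30 ± 0.31), and Dysf, the membrane repair gene dysferlin (-1.17 ± 0.32). Jph3 had values on only 7 of 12 Smn1deltaSKM arrays, and 1 of the 12 measured signals lay below all WT signals. Casq2, the cardiac and slow-fiber form of calsequestrin, had values on 5 of 27 arrays and was not tested. Of 4 pump-related genes 1 fell (25%). This was the gene now named Mrln (2310015B20Rik on the array), whose peptide like Sln inhibits the pump. It fell from 5.43 to 3.64 (-1.79 ± 0.37, adjusted p = 0.0174). Atp2a2, the slow-fiber pump, differed by 1.34 ± 1.11 (adjusted p = 0.401) on its brighter probe. Its dimmer probe went the other way, with measured medians of -1.49 in WT and -2.69 in Smn1deltaSKM. That probe had values on 8 WT, 8 Smn1deltaSKM and 1 Smn1deltaSKM+AFS arrays. Pln, the pump inhibitor of heart and slow muscle, had no value on any array.

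Store-operated entry and surface extrusion had 5 genes lower and 1 higher of 12 (50% called, against 21.1% of all genes). The store sensors fell, with differences of -2.96 ± 0.32 for Stim2 (adjusted p = 0.00705) and -2.22 ± 0.29 for Stim1 (adjusted p = 0.00750). Orai1, the channel they open, fell too (-2.22 ± 0.43, adjusted p = 0.0148), as did the surface pump Atp2b3 (-1.91 ± 0.31, adjusted p = 0.0109) and the exchanger Slc8a3 (-1.04 ± 0.25). Another surface pump, Atp2b1, rose by 1.93 ± 0.49 (adjusted p = 0.0289). Stim2 and Atp2b3 each had values on 9 of 12 Smn1deltaSKM arrays and on 4 Smn1deltaSKM+AFS arrays.

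Of 11 genes of sarcolemmal excitation 4 fell and 1 rose (45.5% called, against 21.1% of all genes). The sodium pump subunits moved in opposite directions: Atp1b2 fell from 5.16 to 2.87 (adjusted p = 0.00705) and Atp1b1 rose from -0.36 to 1.77 (adjusted p = 0.00893). Of 15 calcium-dependent enzymes 8 fell (53.3%). Among them were Camk2a (-2.40 ± 0.31, adjusted p = 0.00717), a calcium and calmodulin kinase, and Ppp3r1 (-2.36 ± 0.31, adjusted p = 0.00731), the regulatory subunit of calcineurin. Of 9 genes of the mitochondrial uniporter and exchanger list 1 fell (11.1%, below the share of all genes), the gene now named Mcur1. The pore gene Mcu (Ccdc109a on the array) differed by -0.55 ± 0.44 (adjusted p = 0.388).

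Of 16 contractile genes of fast and slow fibers 6 passed the test, beside 21.1% of all genes. Of the 9 fast genes 4 fell, among them Mybpc2 (-1.35 ± 0.25, adjusted p = 0.0137) and Mylpf (-1.99 ± 0.40, adjusted p = 0.0163), and Myh1, the fast 2X myosin, rose by 2.20 ± 0.51 (adjusted p = 0.0230). Of 7 slow genes 1 rose, the slow troponin Tnni1. The summed linear level of the 10 fast genes ran from 1777 to 2858 in WT, from 998.7 to 1799 in Smn1deltaSKM and from 1739 to 2353 with AFS cells. That of the 9 slow genes ran from 27.5 to 97.5, from 29.8 to 121 and from 84.5 to 213.8. Their part in the members' differences was not tested.

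In Smn1deltaSKM+AFS against WT, 6 of 84 pathway genes were lower and 2 higher, against 7.32% of all genes called. Atp1b1 rose by 3.62 ± 0.35 (adjusted p = 0.0127), Rcan1, a calcineurin inhibitor, rose by 3.45 ± 0.83 (adjusted p = 0.0459), and Atp1b2, Ppp3r1, Stim2, Camk2a, Stim1 and Cacnb1 fell. Of these fallen genes Atp1b2 differed by -2.46, Ppp3r1 by -2.60 and Cacnb1 by -1.13. Of the contractile genes Myh1 (3.45 ± 0.55, adjusted p = 0.0195), Actn2 (2.34 ± 0.34, adjusted p = 0.0162) and Myl3 (1.89 ± 0.44, adjusted p = 0.0430) rose. In Smn1deltaSKM+AFS against Smn1deltaSKM 0 of 84 pathway genes were called.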

How the data were processed

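RNA of single tibialis anterior myofibers was amplified in 18 cycles and hybridised in 1 colour to mouse arrays annotated on mm9. Per the file headers, Feature Extraction 10.7.3.1 gave the deposited intensity of each spot, with spatial and multiplicative detrending switched on and no scaling from one array to another. The authors' series value table holds linear intensity, normalized across arrays and emptied where a spot was not well above background (column medians 57.4 to 177), and was used as an alternative. From the deposited intensity, log2 of the processed signal minus the 75th percentile of the array was used, without spots that were not found, not well above background, uneven or population outliers. Probes with values on 75% of the arrays (20 for Smn1deltaSKM against WT, 27 otherwise) entered, myofibers were averaged by mouse, and limma 3.58.1 in R 4.3.3 compared the 3 groups across all probes with Benjamini-Hochberg adjustment at 0.05. The brightest probe stood for a gene. The methods' significance analysis over myofibers was not run, and myofibers as replicates were tried as an alternative. The fit was tested on simulated data. Nothing says that mice of a group came from separate litters, and p-values measure the spread between these mice only. For arrays their number, 27 from 7 mice, limits the precision. The members and lists were chosen with earlier results of these data known. Named beside the members were genes of the pathway and contractile lists that passed, up to 12 per comparison by lowest adjusted p, 6 genes of fixed interest (Atp2a2, Casq2, Pln, Stac3, Cacnb1 and Mcu) and the 3 genes most correlated with each member; Cacna2d1, Homer1, Homer3, Tmem38a, Sypl2, Dysf, Mrln, Slc8a3, Atp2b1, Tnni1 and Mcur1 were named after their values were seen. Other settings concerned normalization, centring, filters, probes, replicates, blocks, weights and the prior.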

Additional observations from a re-analysis of the deposited data

Results flagged for a closer look

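In 26 combinations of a member's probe and a group (13 probes in WT and in Smn1deltaSKM+AFS), 3 held a myofiber set apart from the rest of its group by Dixon's criterion, where chance gives about 1 in 20. Casq1 read 4.55 in WT myofiber 3, below the other WT myofibers. Cacng1 read 4.51 in WT myofiber 8, also the lowest of WT. On the brightest probe of each gene, that myofiber was the lowest of WT for Cacna1s, Trdn, Ryr1, Jph1, Jph2, Atp2a1 and Pvalb too, though not for Casq1. On the dimmer Cacna1s probe and the Trdn probe at chr10:32919981-32920040, WT myofiber 7 was the lowest. The array of myofiber 8 had 34001 probes with values and a 75th percentile signal of 157.6. The next highest WT array had 27318 and 130.8. Whether this bears on its member levels was not tested. Jph2 read 2.97 in Smn1deltaSKM+AFS myofiber 1.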

How the results depend on the processing

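Every member difference between Smn1deltaSKM and WT that was computed lay below 0. Jph1 was not tested where values on every array were required. The number called lower, 3 beside 21.1% of all genes, was 9 with myofibers as replicates (54.2% of all genes) or array weights (51.3%), 6 with mouse as a random block (34.6%), 5 with a trended robust prior (22.6%) or without Smn1deltaSKM myofibers 1 to 3 (27.5%), 7 without scan day 1 (29.0%), and 0 to 8 with a mouse left out (0 to 42.7%). It was 2, Casq1 and Ryr1, with quantile normalization (15.7%), normexp (15.6%), median centring (17.7%) or the authors' table (15.7%), and 2, Cacna1s and Ryr1, with slide as a random block (10.2%). The 29 pathway calls became 14 with quantile normalization or the authors' table, 17 with normexp and 19 without a filter (9.71% of all genes). They were also 19 with slide as a random block, 53 with myofibers as replicates, 52 with array weights and 0 to 45 with a mouse left out. The shares of all genes for these other settings are those given above. In Smn1deltaSKM+AFS against Smn1deltaSKM no member was called in any setting and 2 pathway genes were called with myofibers as replicates (0.12% of all genes). There Trdn turned to 0.0187 with probes averaged, 0.13 with array weights, 0.21 without Smn1deltaSKM myofibers 1 to 3 and 0.14 without scan day 1, and Cacng1 to 0.23 with array weights and 0.11 without Smn1deltaSKM myofibers 1 to 3. With a mouse left out Cacng1 ran from -0.90 to 0.58, Jph1 from -0.0893 to 0.87 and Trdn from -0.23 to 0.17. In Smn1deltaSKM+AFS against WT, 0 members were called, beside 7.32% of all genes. With myofibers as replicates 4 members were called, beside 41.4% of all genes. The number was 1 with array weights (27.1%) or without Smn1deltaSKM myofibers 1 to 3 (11.8%). It was 2 without scan day 1 (11.1%) and 0 to 3 with a mouse left out (0 to 28.9%). The 8 pathway calls there became 5 with quantile normalization or the authors' table (each 3.9% of all genes) and 19 with mouse as a random block (19.9%). Beside the shares just given, they were 34 with myofibers as replicates, 24 with array weights and 17 without Smn1deltaSKM myofibers 1 to 3. They were 14 without scan day 1 and 0 to 30 with a mouse left out. Atp2a1 turned to 0.0135 with quantile normalization and 0.029 with the authors' table, and Pvalb to 0.21, 0.17 and 0.16 with quantile, normexp and the authors' table. Mouse numbers in the labels name different animals. With the number as a replicate block, 2206 genes were called in Smn1deltaSKM against WT in place of 3599, 2 of them members (Cacna1s and Ryr1), and Jph1 turned to -0.0893 in Smn1deltaSKM+AFS against Smn1deltaSKM. Leaving out scan day 1 was chosen after the data were seen, and scan day as a fixed block could be run only between the knockout groups. Slide as a random block cannot separate WT from slide, since the WT slide held no other group. The causes of these shifts were not tested. Probes near background, among them Sln, part of Jph1, Jph3, Stim2 and Atp2b3, are limited by signal.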
